A study of Mus musculus with 59 samples.

Results

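Microglia are the resident macrophages of the brain, and they depend on signaling through Csf1r, the receptor for the cytokines Csf1 and IL-34. In the healthy brain they carry a set of surface receptors, such as P2ry12, Cx3cr1, and Tmem119, with which they sense nucleotides, neuronal chemokine, and other cues, and they make complement C1q, which tags synapses and debris. In models of neurodegeneration many of them lower these homeostatic genes and raise a disease-associated program that runs through Trem2 and its adaptor Tyrobp and includes Itgax, Cst7, Lpl, and Axl.

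Here, 33 such genes of 54232 genes in the count files were examined in bulk tissue from 5 brain regions of mice aged 10 weeks on a C57BL/6 background. The 33 genes were taken by name, and each name matched 1 gene identifier. The mice were WT (wildtype), Atxn1_154Q/2Q (154Q below), which carry 1 Atxn1 allele with an expanded CAG repeat beside a normal allele and model spinocerebellar ataxia type 1 (SCA1), or Atxn1_154Q[V591A;S602D]/2Q (154Q-AXH below), in which the expanded allele also carries V591A and S602D in the AXH domain, a change made to stop the ATXN1 protein from binding the repressor CIC. The expanded allele is a knock-in at the Atxn1 locus and so not limited to 1 cell type, and the AXH changes were introduced into it by CRISPR-Cas9 editing. There were 4 mice of each genotype, 12 in all, and 59 libraries, 1 for each mouse and region, with 3 libraries for the 154Q-AXH brainstem and 4 in every other group.

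The genes fell into 7 groups by role. They were 10 homeostatic surface receptors, 3 chains of complement C1q, 4 immunoreceptor adaptors and partners, 3 lysosomal and endosomal proteins, 6 leukocyte surface, adhesion, and signaling proteins, 2 transcription factors, and 5 disease-associated genes. After a filter on low counts 33 of them could be tested in the cerebellum, brainstem, and hippocampus, and 32 in the striatum and cortex, where Cst7, a cystatin that inhibits lysosomal proteases, had from 0 to 13 counts per library and was not tested. In bulk tissue fewer microglia and less RNA per microglial cell cannot be told apart.

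Counted read pairs ranged from 28058359 to 112343574 per library, with the striatum (median 35341804) and cortex (39662500) sequenced less deeply than the other regions (medians from 83104958 to 89555042). A few libraries stood apart. The hippocampal library of 154Q-76 held 381 CPM (counts per 1000000 counted pairs) of the summed brainstem markers against 0.26 to 1.87 CPM in the other hippocampal libraries. The cortical library of WT-221 had 462 CPM of Xist, the RNA of the inactive X chromosome, against 0.411 to 5.64 CPM in the other libraries of that mouse. Xist was otherwise high in every library of 154Q-75 and 154Q-AXH-217 and in no other WT library, and it was at 190 CPM in the hippocampal library of 154Q-76. The names of the cortical files of 154Q-76 and 154Q-AXH-207 were exchanged relative to their labels, and the labels were used. All 4 154Q mice carried numbers below 100 and all 4 154Q-AXH mice numbers above 200, and WT mice came from both number series, so the 2 mutants cannot be told apart from their number series. Some results that rest on these libraries, such as those of Dok3, Lpl, and Cd200, are also given without them. The others are given only with them. Among these are the WT region values, the median log2 fold changes, and calls such as those of hippocampal Mertk and cortical Sparc.

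In WT mice most of these genes were lowest in the cerebellum and highest in the striatum. Of the 33 genes, 30 had their lowest mean level per length (RPKM, read pairs per kilobase of exon, scaled to library size as CPM is) in the cerebellum, 2 in the brainstem, and 1 in the striatum, whereas 24 were highest in the striatum, 7 in the hippocampus, and 2 in the brainstem. Against the mean of the other regions, 30 of 33 were lower in the cerebellum (edgeR quasi-likelihood test, adjusted p under 0.05, with adjustment over all genes) and none was higher, where 35.2% of all 22200 genes tested were lower and 37.2% higher (72.5% in either direction). Their median log2 difference was -1.41 in the cerebellum against 0.00 over all genes. The 5 regions came from the same mice, and this fit held no term for the mouse. The striatum and cortex were sequenced less deeply than the other regions, and the part of that in these differences was not tested.

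The other regions followed in order. In the brainstem 23 genes were lower and 3 higher (all genes: 32% lower, 32.6% higher, 64.5% either), with a median log2 difference of -0.38. In the hippocampus 20 were higher and 1 lower (30.6% and 26.9%, 57.5% either), with a median of 0.27. In the cortex 24 were higher and none lower (27.9% and 28.3%, 56.3% either), with a median of 0.45. In the striatum 28 were higher and 1 lower (31.4% and 27.8%, 59.2% either), with a median of 0.87. Across all regions together 31 of the 33 differed (91.6% of all genes did), and the exceptions were Itgax and Cst7.

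Among the homeostatic surface receptors, Csf1r had the highest level in the brainstem, striatum, and cortex, and P2ry12 in the cerebellum and hippocampus. The mean of Csf1r in WT mice was 19.9 ± 0.983 RPKM in the striatum, 18.8 ± 0.846 in cortex, 13.9 ± 0.6 in hippocampus, 9.63 ± 0.481 in brainstem, and 4.83 ± 0.352 in cerebellum (SD, n = 4). The spreads of the striatum and cortex overlapped, and the other neighbors in that order did not. Csf1r shares 873 exonic bases with its neighbor Hmgxb3, so reads there could not be assigned. P2ry12, the ADP receptor with which microglia extend processes toward injury, ran from 5.28 ± 0.276 RPKM in the cerebellum to 17.4 ± 0.865 in the hippocampus. Cx3cr1, the receptor for neuronal fractalkine, ran from 3.48 ± 0.327 RPKM in the cerebellum to 12.4 ± 1.06 in the striatum. Fcrls, an Fc receptor-like gene typical of microglia, had the steepest gradient of this group, 6.67-fold between the striatum and cerebellum, with a cerebellar log2 difference of -2.16 ± 0.082 (SE, adjusted p = 3.3e-15, edgeR).

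The secreted and intracellular genes were graded alike. C1qa was at 13.9 ± 1.36 RPKM in the cerebellum and 57.8 ± 15 in the striatum, and C1qb and C1qc differed 3.93-fold between these regions. Tyrobp, the signaling adaptor of Trem2, was at 6.56 ± 1.38 RPKM in the cerebellum and 18.3 ± 4.62 in the striatum, and Trem2, the lipid-sensing receptor, at 0.729 ± 0.135 and 4.39 ± 0.917. Ctss, a lysosomal protease, had the highest level of all 33 genes in the cerebellum, brainstem, and hippocampus, and C1qa in the striatum and cortex. Ctss was at 22.4 ± 2.78 RPKM in the cerebellum and from 43.5 ± 4.7 to 54.3 ± 11.9 in the other regions. Spi1, which encodes the macrophage factor PU.1, rose from 0.43 ± 0.0917 RPKM in the cerebellum to 1.99 ± 0.641 in the striatum, and its partner Irf8 from 0.255 ± 0.0339 to 1.24 ± 0.194.

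The WT gradient did not hold for every gene. P2ry12, Cd33, Ptprc, Apbb1ip, Dok3, Lpl, and Cd74 were highest in the hippocampus and Axl and Itgax in the brainstem. Ptprc, which encodes CD45, was at 0.273 ± 0.0499 RPKM in the hippocampus and 0.191 ± 0.0132 in the striatum, where its log2 difference was -0.15 ± 0.16 (adjusted p = 0.422, edgeR). Lpl, a lipoprotein lipase that neurons also make, was 48.4-fold higher in the hippocampus (6.69 ± 0.324 RPKM) than in the cerebellum (0.138 ± 0.0316), and its hippocampal log2 difference was 2.89 ± 0.11 (adjusted p = 2.8e-14, edgeR). Axl, a receptor for dying cells that astrocytes and vessels also make, was the flattest gene, from 8.89 ± 0.855 RPKM in the cerebellum to 12.2 ± 0.454 in the brainstem. Cd74, the invariant chain of class II antigen presentation, was lowest in the striatum (1.21 ± 0.065 RPKM) and highest and most variable in the hippocampus (2.84 ± 1.66). Dok3, an adaptor that restrains immunoreceptor signaling, was lowest in the brainstem (1.85 ± 0.227 RPKM), highest in the hippocampus (4.75 ± 0.448), and not lower in the cerebellum than in the other regions at the threshold (log2 difference -0.20 ± 0.096, adjusted p = 0.0718, edgeR). Itgax and Cst7, hallmarks of the disease-associated state, stayed between 0.0304 and 0.205 RPKM in all 5 regions.

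**Figure D1:**
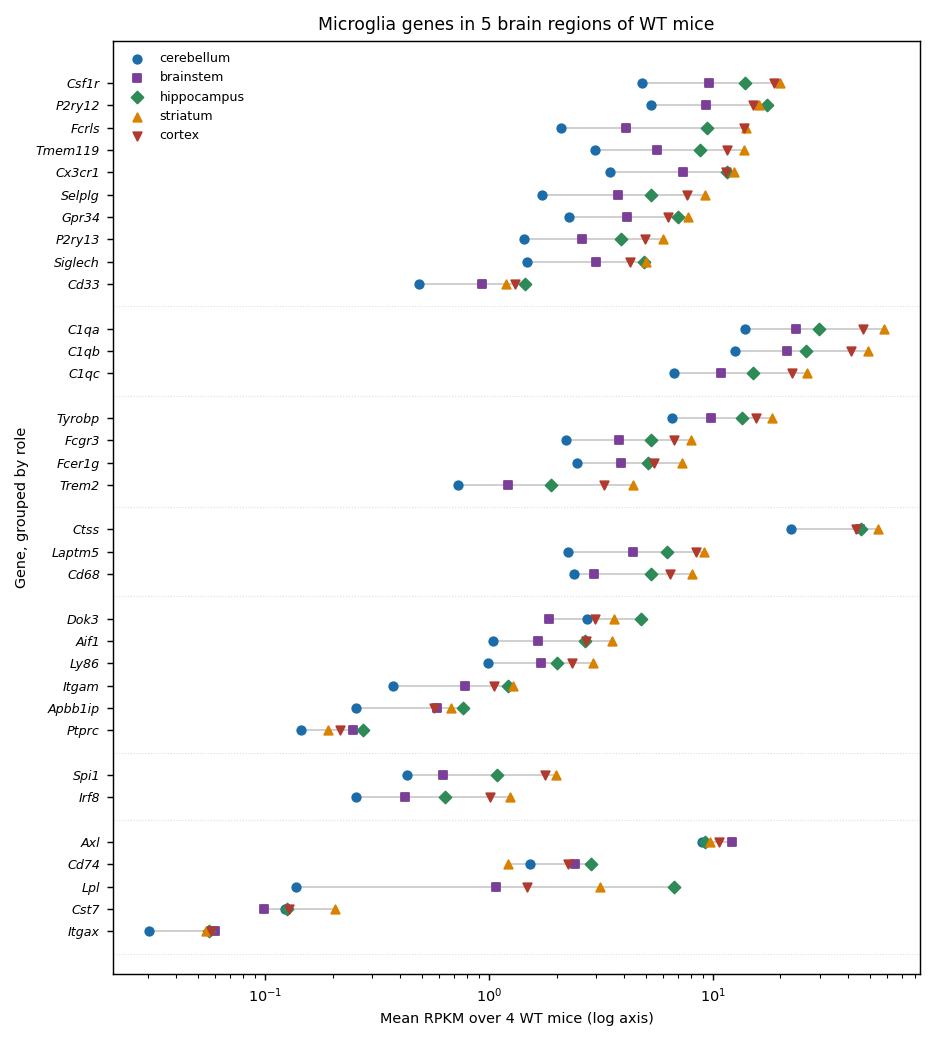
Mean RPKM over 4 WT mice (log axis) of each of the 33 genes, 1 row a gene, grouped by role with dotted lines between groups; colors and marker shapes stand for the 5 regions. The cerebellum (circles) is the leftmost point for 30 genes, and Lpl spans the widest range, from 0.138 to 6.69 RPKM.

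Turning to the mutants, the question was whether the microglia genes moved with the expanded allele and whether the AXH changes altered this. Few genes were called, in this list as among all genes, whose shares are in parentheses. Against WT, 154Q mice had 1 of 33 genes called in the cerebellum (5.22% of all genes were called there) and 0 of 33 in the brainstem (0.538%). The hippocampus had 4 of 33 (5.91%), the striatum 2 of 32 (5.69%), and the cortex 3 of 32 (11.1%). In 154Q-AXH mice the counts were 0 of 33 for both cerebellum (2.21%) and brainstem (0.0138%), 1 of 33 for hippocampus (1.3%), 1 of 32 for striatum (1.35%), and 3 of 32 for cortex (7.15%). The shares of the 33 genes were at most 12.1%, in the 154Q hippocampus, and lay on both sides of the shares of all genes. With DESeq2 the counts in 154Q were 7 for hippocampus (10.3% of all genes) and 4 for striatum (9.98%), and in 154Q-AXH 2 for cerebellum (5.05%), 1 for brainstem (0.386%), 3 for hippocampus (4.58%), and 7 for cortex (9.62%). At an unadjusted p under 0.05 the counts in 154Q were 12 for hippocampus (21.5% of all genes), 13 for striatum (23.6%), 7 for cortex (25.3%), 2 for brainstem (10.9%), and 1 for cerebellum (18%). In 154Q-AXH they were 11 for cortex (20.5%), 5 for striatum (12.6%), 4 for both hippocampus (14.9%) and cerebellum (15.1%), and 3 for brainstem (6.73%). The comparisons of the 2 mutants with WT share the same WT mice and are not independent of each other.

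Between 154Q-AXH and 154Q directly, no gene of the 33 was called in any region by edgeR or DESeq2. By edgeR 0.0335% of all genes were called in the cerebellum and none in the other 4 regions. By DESeq2 the shares were 0.604% for cerebellum, 0.193% for brainstem, 0.224% for hippocampus, 0.0109% for striatum, and 0% for cortex. At an unadjusted p under 0.05 there were 7 of 33 genes in the cerebellum (7.6% of all genes) and 6 of 32 in the striatum (3.26%), and 2 each for brainstem (5.35%), hippocampus (11%), and cortex (6.67%). The fitted signs leaned one way in 3 regions: 30 of 33 were lower in 154Q-AXH in the cerebellum (median log2 fold change -0.18, against -0.01 over all genes), whereas 31 of 33 were higher in the hippocampus (0.11 against -0.01) and 31 of 32 in the striatum (0.23 against 0.00). The genes were measured in the same libraries, so these signs are not separate observations.

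Across the 33 genes the differences from WT were small. The median log2 fold change in 154Q was -0.23 in the striatum and -0.14 in the hippocampus. It was 0.07 in the cerebellum and 0.01 in both the brainstem and cortex, where the medians over all genes lay between -0.01 and 0.02. In the 154Q hippocampus 29 of 33 genes were fitted lower (46.5% of all genes) and in the striatum 27 of 32 (51.7%). In the cerebellum the lean was the other way, with 6 of 33 lower and 27 higher (49.6% of all genes lower). The brainstem had 13 of 33 lower (49%) and the cortex 15 of 32 (47.7%). In 154Q-AXH the medians were -0.10 (cerebellum), -0.01 (brainstem), -0.05 (hippocampus), 0.01 (striatum), and 0.05 (cortex). From 17 to 29 genes of 154Q and from 24 to 30 genes of 154Q-AXH lay within 0.25 log2 units of WT in each region.

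**Figure D2:**
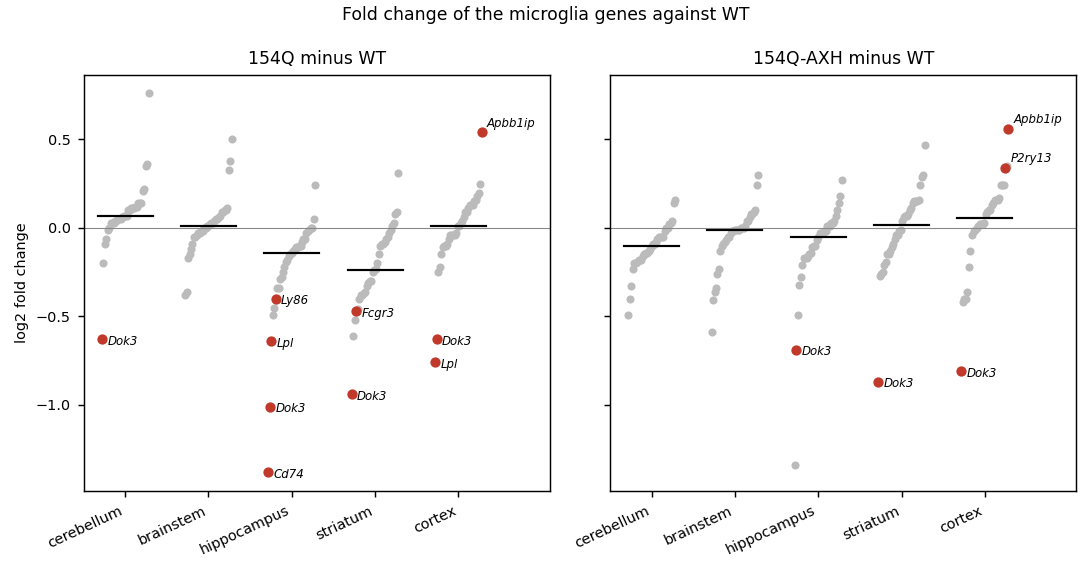
log2 fold change against WT of each of the 33 genes in each region, for 154Q (left) and 154Q-AXH (right); points are genes in rising order, red named points passed an adjusted p of 0.05 (edgeR), gray points did not, and the black bar is the median. Dok3 is named in 4 regions in 154Q and in 3 in 154Q-AXH.

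The summed level of the 33 genes was compared library by library. In the hippocampus it was 654 to 706 CPM in WT, 555 to 653 CPM in 154Q, and 621 to 684 CPM in 154Q-AXH. WT and 154Q nearly touched, at 654 and 653 CPM, and the lowest value was that of 154Q-76, the library with brainstem markers. In the striatum the sum was 755 to 999 CPM in WT, 698 to 773 CPM in 154Q, and 758 to 910 CPM in 154Q-AXH, and the highest was that of WT-220. The genotypes overlapped there. WT-220 also had the highest sum of 5 striatal markers, 2418 CPM, and these sums were 747 to 2418 CPM in WT, 359 to 575 CPM in 154Q, and 293 to 1657 CPM in 154Q-AXH. Their part in the striatal results was not tested. In the brainstem (447 to 500 CPM) and cortex (634 to 801 CPM) the ranges of the genotypes overlapped too. In the cerebellum each mutant overlapped WT (239 to 281 CPM), but 154Q (261 to 304 CPM) and 154Q-AXH (251 to 256 CPM) did not overlap each other.

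Sums of region markers differed between genotypes in these libraries. The sum of 5 hippocampal markers was 635 to 747 CPM in the WT hippocampus, 305 to 461 CPM in 154Q, and 450 to 550 CPM in 154Q-AXH. The sum of 5 cortical markers in the cortex was 517 to 617, 369 to 448, and 370 to 447 CPM in the same order, and neither mutant overlapped WT in either region. In the cerebellum 5 cerebellar markers summed to 3984 to 4333 CPM in WT, 3550 to 3831 CPM in 154Q, and 3950 to 4147 CPM in 154Q-AXH. The part of these shifts in the results of the same regions, those of Dok3 and Lpl among them, was not tested.

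Dok3 carried 7 of the 15 calls against WT. In the hippocampus it was at 10.8, 11.2, 12, and 13.2 CPM in WT, at 6.53, 6.91, 4.29, and 5.78 CPM in 154Q, and at 5.74, 8.15, 7.94, and 7.59 CPM in 154Q-AXH. Every mutant library was below every WT library. The log2 fold change was -1.01 ± 0.15 in 154Q (SE, adjusted p = 0.00279, edgeR) and -0.69 ± 0.14 in 154Q-AXH (adjusted p = 0.0408). The striatum had 9.41, 7.97, 8.97, and 8.63 CPM in WT, 6.19, 5.06, 3.55, and 3.38 CPM in 154Q, and 4.01, 4.43, 5.58, and 5.08 CPM in 154Q-AXH, again with no overlap of either mutant with WT. Its log2 fold changes were -0.94 ± 0.18 (adjusted p = 0.00911, edgeR) and -0.87 ± 0.18 (adjusted p = 0.0329).

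In the cortex Dok3 was at 7.1, 7.8, 7.4, and 6.18 CPM in WT, 3.82, 6.53, 3.33, and 4.6 CPM in 154Q, and 3.32, 4.08, 4.29, and 4.6 CPM in 154Q-AXH. Only 154Q-71, at 6.53 CPM, reached into the WT range. The log2 fold change was -0.63 ± 0.17 in 154Q (adjusted p = 0.0233, edgeR) and -0.81 ± 0.17 in 154Q-AXH (adjusted p = 0.00945). In the cerebellum WT libraries had 5.07, 7.16, 7.54, and 7.56 CPM, 154Q libraries 4.27, 4.51, 4.98, and 3.96 CPM, and 154Q-AXH libraries 4.14, 4.46, 5.25, and 5.73 CPM. All 154Q libraries were below WT (-0.63 ± 0.13, adjusted p = 0.0117, edgeR), and 154Q-AXH overlapped WT-70 (-0.49 ± 0.13, adjusted p = 0.07). In the brainstem the log2 fold changes were -0.38 ± 0.15 and -0.59 ± 0.17 (adjusted p = 0.378 and 0.489). No difference of Dok3 between the 2 mutants was called in any region, with adjusted p from 0.455 to 1, nor did its change in 154Q differ among regions at the threshold (test of the region by genotype terms, adjusted p = 0.294).

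The Dok3 calls varied in how far they rested on single libraries. In 154Q those of the cerebellum, hippocampus, and striatum were kept when any 1 library was left out, and the cortical one was lost without WT-77, WT-220, 154Q-69, or 154Q-75 (log2 fold changes from -0.61 to -0.50). In 154Q-AXH the cortical call was kept without any 1 library but was lost without the 2 cortical libraries with exchanged names (-0.72, adjusted p = 0.0512), the hippocampal call was kept in 2 of 12 such fits, and the striatal call in 5 of 12. With the mouse number series as a term in the fit, the 154Q values were -0.48 in the cerebellum, -0.93 in the striatum, and -0.70 in the cortex and no longer called (adjusted p from 0.0717 to 0.0888, edgeR), and the hippocampal call was kept. In 154Q-AXH none of the 3 calls was kept in that fit (adjusted p from 0.0786 to 0.107). In every fit made the value stayed below 0.

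Dok3 and Ly86 are the 2 genes of the list on chromosome 13, where Atxn1 lies (GRCm38, chr13:45549755-45965008). Dok3 (chr13:55523231-55529296, minus strand) is 9.56 Mb from it and Ly86 (chr13:37345208-37419036, plus strand) 8.13 Mb on the other side. Ly86, which encodes MD-1, a partner of the Toll-like receptor homolog RP105, was at 8.66, 6.99, 6.56, and 7.17 CPM in the WT hippocampus, 5.43, 5.14, 5.95, and 5.72 CPM in 154Q, and 5.93, 6.03, 5.22, and 6.3 CPM in 154Q-AXH. Neither mutant overlapped WT. The fold change was called in 154Q (-0.40 ± 0.10, adjusted p = 0.0342, edgeR) and not in 154Q-AXH (-0.32 ± 0.10, adjusted p = 0.141), and the first was lost without WT-70, WT-77, WT-221, 154Q-69, or 154Q-71 (adjusted p from 0.0519 to 0.0847). In the other regions its log2 fold change was between -0.52 and -0.17 in 154Q and between -0.41 and -0.22 in 154Q-AXH, none called. In these data an effect of the mutant protein and an effect of DNA inherited with the mutant allele cannot be told apart for these 2 genes.

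Upstream sequence was examined for both the motif of PU.1, the main macrophage factor, and the DNA octamers of CIC. The AXH changes were made to stop ATXN1 from binding CIC, not to stop CIC from binding DNA. RefSeq start regions (GRCm38.p6) matched 24 of the 33 genes. The letters GAGGAAG, a core of PU.1 sites, were found on either strand in the 250 bases before the start of 9 of the 24 (Axl, C1qc, Cd33, Fcgr3, Fcrls, Itgam, Laptm5, P2ry13, and Trem2), against 12% of 27025 genes with such a region. The CIC octamers TGAATGAA and TGAATGGA were found in 0 of the 24, against 1.25% and 1.18% of genes. These are matches of letters and no measurement of binding. The stretches before a RefSeq start of 3 genes are given, with GAGGAAG or its reverse complement in capitals: P2ry13 and Trem2, which hold the motif, and Dok3, the most often called gene, whose stretch holds none of these motifs. The Dok3 stretch precedes a RefSeq start but lies within the gene span given above, so it does not cover the sequence upstream of that whole span. They are P2ry13 (chr3:59210883-59211132, minus strand), Trem2 (chr17:48346151-48346400, plus strand), and Dok3 (chr13:55528555-55528788, minus strand, without the 16 bases that an annotated exon covers).
P2ry13: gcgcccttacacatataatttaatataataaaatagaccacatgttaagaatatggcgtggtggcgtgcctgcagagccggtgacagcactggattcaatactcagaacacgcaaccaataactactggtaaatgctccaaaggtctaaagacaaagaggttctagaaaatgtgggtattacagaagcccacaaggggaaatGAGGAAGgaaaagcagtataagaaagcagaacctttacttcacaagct
Trem2: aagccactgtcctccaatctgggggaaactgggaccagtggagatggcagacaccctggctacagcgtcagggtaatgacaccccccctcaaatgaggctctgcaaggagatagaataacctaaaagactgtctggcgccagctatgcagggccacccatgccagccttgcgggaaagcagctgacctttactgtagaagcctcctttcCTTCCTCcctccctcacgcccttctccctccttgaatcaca
Dok3: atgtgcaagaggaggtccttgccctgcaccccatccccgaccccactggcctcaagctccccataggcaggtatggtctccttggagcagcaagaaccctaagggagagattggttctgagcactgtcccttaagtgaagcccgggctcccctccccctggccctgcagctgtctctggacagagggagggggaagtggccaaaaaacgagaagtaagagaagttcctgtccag

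Lpl was the other gene called in more than 1 region. In the cortex it was at 14.6, 16.4, 14.7, and 14.2 CPM in WT, 7.53, 8.75, 9.87, and 9.31 CPM in 154Q, and 13.9, 8.59, 9.65, and 13.1 CPM in 154Q-AXH. All mutant libraries were below all WT libraries, with 154Q-AXH-207 and 154Q-AXH-218 close to WT. The log2 fold change was -0.76 ± 0.13 in 154Q (adjusted p = 0.00179, edgeR), kept in all 22 alternatives tried, and -0.40 ± 0.13 in 154Q-AXH (adjusted p = 0.0766). The difference between the mutants was 0.35 ± 0.14 and was not called (adjusted p = 0.744). In the hippocampus Lpl was at 68.7, 69.3, 70.1, and 75.6 CPM in WT, 48.7, 46.7, 53.8, and 32.6 CPM in 154Q, and 53, 71, 56.7, and 53.5 CPM in 154Q-AXH.

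Again 154Q did not overlap WT in the hippocampus (-0.64 ± 0.13, adjusted p = 0.0162, edgeR), and 154Q-AXH did through 154Q-AXH-209 (-0.28 ± 0.13, adjusted p = 0.361). Its lowest library was 154Q-76, which also held brainstem markers, and without it the log2 fold change was -0.52 (adjusted p = 0.00908). Without WT-220 and WT-221 it was -0.61 and not called (adjusted p = 0.108), and with the number series in the fit it was -0.60 (adjusted p = 0.0747). With 154Q-76 left out the genes called in the 154Q hippocampus were Dok3, Lpl, Ly86, and Fcrls, and no longer Cd74. In the striatum Lpl was widely spread within genotypes, from 23.7 to 48.3 CPM in WT and from 13.8 to 55.3 CPM in 154Q-AXH. The 2 highest libraries, WT-220 and 154Q-AXH-217, also had the highest striatal marker sums, 2418 and 1657 CPM, and their part in this was not tested. In the cerebellum Lpl was at 0.96 to 2.34 CPM in all libraries.

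**Figure D3:**
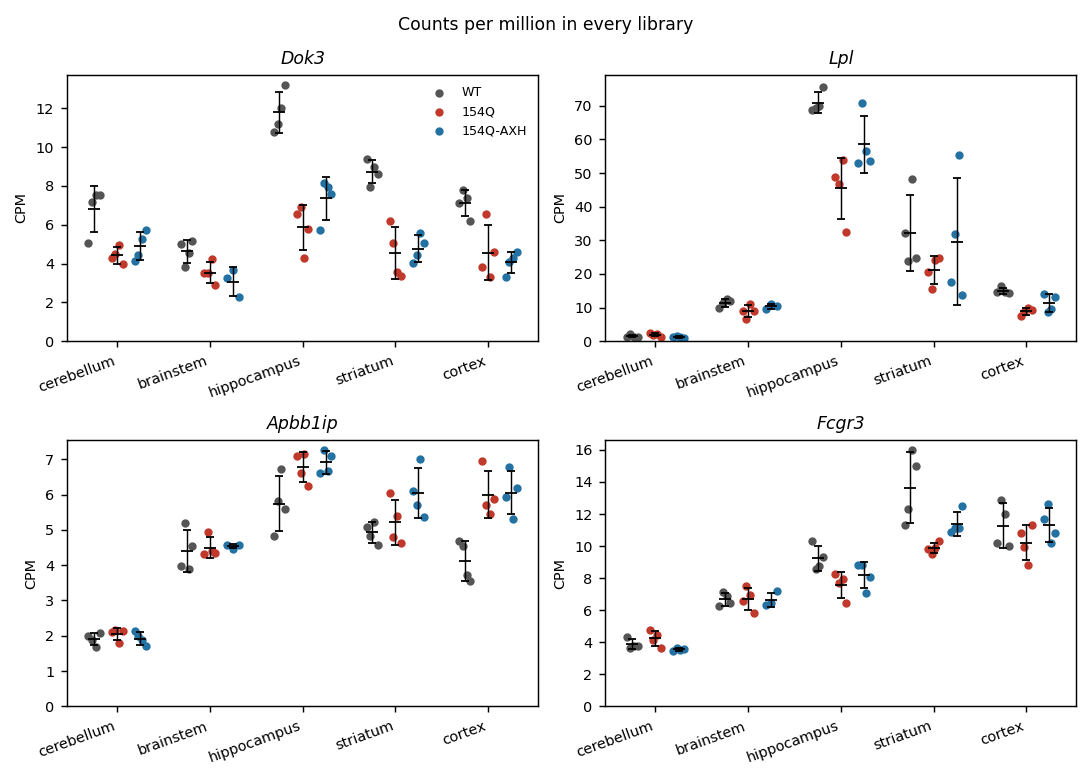
CPM of Dok3, Lpl, Apbb1ip, and Fcgr3 in every library (points), by region and genotype, with the mean and SD (bars); the axes start at 0. Hippocampal Dok3 is 10.8 to 13.2 CPM in WT and 4.29 to 8.15 CPM in the mutants, and cortical Apbb1ip is 3.56 to 4.69 CPM in WT and 5.31 to 6.96 CPM in the mutants.

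Cortical Apbb1ip rose in both mutants. It encodes RIAM, an adaptor that links Rap1 to integrin activation, and was at 4.69, 4.54, 3.71, and 3.56 CPM in WT, 6.96, 5.69, 5.45, and 5.86 CPM in 154Q, and 5.94, 6.77, 5.31, and 6.18 CPM in 154Q-AXH. No mutant library overlapped WT. The log2 fold changes were 0.54 ± 0.12 (adjusted p = 0.00941, edgeR) and 0.56 ± 0.12 (adjusted p = 0.0108), and both were kept without any 1 library. With the number series in the fit the first was 0.37 and not called (adjusted p = 0.149), and the second was kept. In the other regions its log2 fold change was from 0.02 to 0.29 and was not called.

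P2ry13, an ADP receptor beside P2ry12 on chromosome 3, was at 12.3, 11.6, 13.1, and 12 CPM in the WT cortex and 15, 16.4, 16.1, and 14.5 CPM in 154Q-AXH, again without overlap (0.34 ± 0.078, adjusted p = 0.0144, edgeR). This call was lost without 154Q-AXH-209 (adjusted p = 0.0511) and with the number series in the fit (0.31, adjusted p = 0.125). In the 154Q cortex P2ry13 was at 14.7, 13.5, 12.3, and 15.5 CPM, and its difference from WT was 0.20 ± 0.078 (adjusted p = 0.129).

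Of the 10 homeostatic surface receptors, P2ry13 in the 154Q-AXH cortex was the only one called against WT in the main edgeR fit. Here and below, genes said not to be called were not called in that fit. DESeq2 called more genes in some regions, as given above. Their median log2 fold change in 154Q was between -0.09 and 0.09 in the 5 regions, and in 154Q-AXH between -0.07 and 0.16. Csf1r, the growth factor receptor, differed from WT by -0.09 to 0.09 in the 10 comparisons, P2ry12 by -0.14 to 0.16, and Cx3cr1 by -0.12 to 0.16. The closest to the threshold was Fcrls in the 154Q hippocampus, at 17.6 CPM on average against 22.2 CPM in WT (-0.34 ± 0.097, adjusted p = 0.0592, edgeR). With the hippocampal library of 154Q-76 left out, Fcrls was called there.

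The 3 chains of C1q were not called in any comparison with WT. The comparison closest to the threshold was the 154Q striatum, with log2 fold changes from -0.40 to -0.30 and a lowest adjusted p of 0.0925 for C1qb. C1qa there averaged 44.8 CPM against 59 CPM in WT (-0.40 ± 0.14, adjusted p = 0.104, edgeR). In the other regions the 3 genes differed from WT by -0.23 to 0.11 in the 2 mutants.

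Among the immunoreceptor adaptors and partners, Fcgr3, a low-affinity receptor for IgG, was called in the 154Q striatum. It was at 11.3, 12.3, 16, and 15 CPM in WT, 9.81, 9.52, 9.86, and 10.3 CPM in 154Q, and 10.9, 11.1, 11.1, and 12.5 CPM in 154Q-AXH. All 154Q libraries were below WT (-0.47 ± 0.11, adjusted p = 0.0256, edgeR), and the call was lost without WT-221 or without any 1 of the 4 154Q libraries (adjusted p from 0.0613 to 0.0842). With the number series in the fit it was -0.26 (adjusted p = 0.274). Fcgr3 has near-identical relatives among the IgG receptors, so its counts depend on how reads that match several of them were left out. Tyrobp, Fcer1g, and Trem2 were also fitted lower in the 154Q striatum, with the group between -0.47 and -0.37, and not called. Trem2 averaged 15.6 CPM against 21.3 CPM (-0.46 ± 0.13, adjusted p = 0.0618, edgeR).

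In the 154Q striatum markers of some other cell types were fitted lower as well. For others the median log2 fold change was 0.31 (choroid plexus), -0.03 (neurons), -0.05 (border macrophages), and -0.09 (pericytes), with none of these markers called. The 6 oligodendrocyte markers had log2 fold changes from -0.65 to -0.43 (median -0.54), none called, and their sums of 7070 to 8556 CPM did not overlap the 9753 to 16187 CPM of WT. The 6 astrocyte markers had a median of -0.31, with 1 called, where 5.69% of all genes were called. All 5 red blood cell markers were called lower (log2 fold changes from -1.04 to -0.74), and their sum was 59.3 to 82.8 CPM in 154Q against 111 to 188 CPM in WT. In the 154Q hippocampus, where 5.91% of all genes were called, 4 of the 5 were called lower, with sums of 34.4 to 48.8 CPM against 59.4 to 135 CPM. Summed endothelial markers overlapped between WT and 154Q in both regions, at 178 to 205 and 150 to 205 CPM in the hippocampus and 191 to 229 and 165 to 202 CPM in the striatum, where 1 of the 6, Cldn5, was lower (-0.48 ± 0.11, adjusted p = 0.0297, edgeR). The part of these cells, and of blood left in the tissue, in the striatal and hippocampal results was not tested.

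The lysosomal genes Cd68, Ctss, and Laptm5 were not called. Cd68, a lysosomal glycoprotein of phagocytic cells, had log2 fold changes from -0.36 to -0.06 in the hippocampus, striatum, and cortex of both mutants, closest to the threshold in the 154Q-AXH cortex, at 6.12 CPM against 7.85 CPM in WT (-0.36 ± 0.11, adjusted p = 0.0539, edgeR), whereas Ctss in the same comparison was at 67.8 CPM against 57.7 CPM (0.24 ± 0.073, adjusted p = 0.0647). Of the 2 transcription factors, neither Spi1 nor Irf8 was called, with log2 fold changes from -0.36 to 0.33. Among the leukocyte surface genes, Aif1 (the macrophage marker Iba1), Ptprc (CD45), and Itgam (CD11b) were called in no comparison with WT. Itgam shares 3450 exonic bases with the overlapping gene model Gm49368. Its closest value was in the 154Q-AXH cortex, at 6.58 CPM against 5.14 CPM (0.35 ± 0.11, adjusted p = 0.0583, edgeR).

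No disease-associated gene was called higher than WT in any region of either mutant. In the 154Q cerebellum all 5 were fitted higher (median log2 fold change 0.35, from 0.06 to 0.76), none called. In 154Q 3 of 5 were fitted higher in the brainstem, 1 of 5 in the hippocampus, and 1 of 4 in both striatum and cortex. In the 154Q-AXH cerebellum 4 of the 5 were fitted lower than WT (median -0.15) and 4 lower than 154Q (median -0.51), none called. Itgax averaged 0.149 to 0.291 CPM in WT, 0.193 to 0.329 CPM in 154Q, and 0.12 to 0.369 CPM in 154Q-AXH over the 5 regions, with 4 to 55 counts per library. Its log2 fold changes ran from -0.49 to 0.47, with standard errors from 0.29 to 0.51, so changes of that size were not detectable at this depth. Cst7 was as low, at 0.205 CPM in the 154Q cerebellum against 0.122 CPM in WT (0.76 ± 0.46, adjusted p = 0.418, edgeR). Axl differed from WT by at most 0.16 ± 0.055 (154Q-AXH cerebellum, adjusted p = 0.179).

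Cd74 was the only gene of the list whose change in 154Q differed between regions (test of the region by genotype terms, adjusted p = 0.023, edgeR), where 5.71% of 23359 genes did. In 154Q-AXH no gene of the 33 differed (1.33% of 23624), with 4 at an unadjusted p under 0.05. In the hippocampus Cd74 was at 1.91 and 2.92 CPM in WT-70 and WT-77, at 6.96 and 7.42 CPM in WT-220 and WT-221, at 1.71, 1.98, 1.56, and 1.98 CPM in 154Q, and at 1.98, 1.24, 1.79, and 2.51 CPM in 154Q-AXH. The mutants lay in or below the range of WT-70 and WT-77, and only WT-220 and WT-221 stood above. The log2 fold change in 154Q was -1.38 ± 0.37 (adjusted p = 0.0486, edgeR), and in 154Q-AXH -1.34 ± 0.38 (adjusted p = 0.11). The call was kept in 3 of 12 fits that left out 1 library. It was lost without WT-220 (-1.16), WT-221 (-1.10), any of the 4 154Q libraries, 154Q-AXH-207, 154Q-AXH-209, or 154Q-AXH-217, and without both WT-220 and WT-221 the value was -0.43 (adjusted p = 0.408). The call across regions was lost without the mouse WT-220, WT-221, 154Q-69, 154Q-71, or 154Q-75.

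The same 2 WT libraries held the most lymphocyte marker counts. The summed level of 5 T and B cell markers was 5.55 CPM in WT-220 and 5.35 CPM in WT-221, against 0.591 and 0.866 CPM in the other WT libraries and 0.197 to 1.86 CPM in the mutants. The B cell genes Ms4a1, Cd79a, and Cd79b made up most of it, with Ms4a1 at 2.24 and 1.96 CPM in these 2 libraries and at 0 to 0.671 CPM in the other hippocampal libraries, while Cd3e was at most 0.0762 CPM in them. Of the class II genes, H2-Aa was at 1.5, 2.82, 5.02, and 6.39 CPM in WT and 1.15 to 1.83 CPM in the mutants, and H2-Ab1 (1.27, 1.72, 3.58, and 4.59 CPM in WT) and H2-Eb1 (1.33, 2.1, 3.84, and 4.76 CPM) were likewise highest in WT-220 and WT-221. H2-DMa did not vary so, at 10.3 ± 0.0443 CPM in WT (SD, n = 4). The part of lymphocytes in the Cd74 result was not tested.

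**Figure D4:**
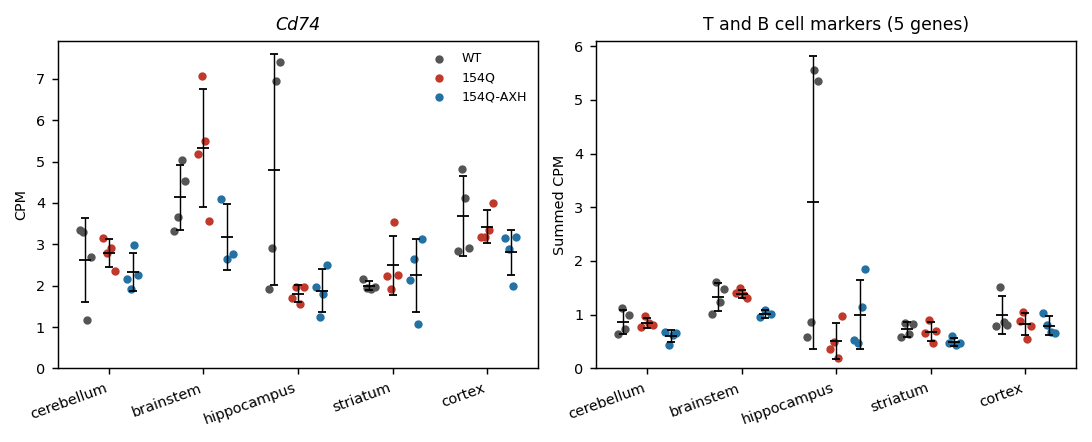
CPM of Cd74 (left) and summed CPM of 5 T and B cell markers (right) in every library, by region and genotype, with the mean and SD. In the WT hippocampus the same 2 libraries, WT-220 and WT-221, stand above the others in both panels, at 6.96 and 7.42 CPM of Cd74.

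Other genes of microglial biology were counted from lists that were written down with these results in view. The shares of all genes called, 0.538% to 11.1% by region in 154Q and 0.0138% to 7.15% in 154Q-AXH, stand beside these counts. Of 16 further homeostatic microglia genes (80 tests over the 5 regions), 2 fell in the 154Q hippocampus: Mertk, a receptor for dying cells (-0.46 ± 0.10, adjusted p = 0.0214, edgeR), and P2ry6, a UDP receptor (-0.43 ± 0.12, adjusted p = 0.0472). In 154Q-AXH only Sparc, a matrix protein, was called, higher in the cortex (0.25 ± 0.071, adjusted p = 0.0413). Of 20 further disease-associated genes (91 tests), 2 rose and 2 fell in 154Q over the 5 regions: B2m in the brainstem (0.34 ± 0.066) and Timp2 in the striatum (0.32 ± 0.078) rose, and Ctsd in the striatum (-0.30 ± 0.08) and Igf1 in the cortex (-0.35 ± 0.096) fell (adjusted p from 0.0292 to 0.0485, edgeR). Timp2 also rose in the 154Q-AXH striatum (0.38 ± 0.078, adjusted p = 0.034). Of the 6 class II genes (30 tests), H2-DMa and H2-Aa fell in the 154Q hippocampus and H2-DMa in the 154Q striatum. No gene was called among 12 complement genes other than C1q (60 tests) or 14 inflammatory cytokines and sensors (53 tests), in any region and either mutant, by edgeR. Of 7 border macrophage markers (35 tests), 1 was called, Mrc1, lower in the 154Q-AXH cortex (-0.46 ± 0.13, adjusted p = 0.0444). Many markers of blood leukocytes were too low to test. Of 6 markers of monocytes and neutrophils, 0 could be tested in the striatum and 4 in the cortex, and of 5 markers of T and B cells 1 and 2, and none was called in the 21 and 14 tests over all regions.

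Ligands with which other cells signal to microglia were counted likewise. Of 12 ligands and checkpoints, 154Q had 4 calls higher and 5 lower in 60 tests over the 5 regions, and 154Q-AXH 3 higher and 3 lower in 60, beside the shares of all genes given above. Cx3cl1, which encodes fractalkine, the neuronal ligand of Cx3cr1, was at 714, 782, 691, and 778 CPM in the WT striatum, 521, 537, 523, and 502 CPM in 154Q, and 513, 541, 536, and 555 CPM in 154Q-AXH. All mutant libraries were below all WT libraries (-0.51 ± 0.064, adjusted p = 9.4e-04, and -0.47 ± 0.064, adjusted p = 0.00339, edgeR). In the cortex it was at 744, 692, 726, and 699 CPM in WT, 536, 535, 535, and 548 CPM in 154Q, and 530, 508, 584, and 541 CPM in 154Q-AXH, again without overlap (-0.41 ± 0.047, adjusted p = 7.5e-05, and -0.40 ± 0.047, adjusted p = 1.1e-04). In the hippocampus the log2 fold changes were -0.32 ± 0.098 and -0.27 ± 0.098 and not called (adjusted p = 0.0749 and 0.215), and in the cerebellum and brainstem they were between -0.03 and 0.06.

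Cd200, whose product on neurons holds microglia in check through Cd200r1, went the other way. It was at 81.2, 71.8, 63.3, and 75.8 CPM in the WT striatum, 104, 104, 124, and 117 CPM in 154Q, and 103, 109, 76.9, and 111 CPM in 154Q-AXH. All 154Q libraries were above WT (0.62 ± 0.12, adjusted p = 0.00905, edgeR), and 154Q-AXH overlapped WT through 154Q-AXH-217 (0.45 ± 0.12, adjusted p = 0.0849). Cd200 was also called in 154Q in the cerebellum (0.30 ± 0.057, adjusted p = 0.00513), hippocampus (0.45 ± 0.064, adjusted p = 0.00258), and cortex (0.42 ± 0.087, adjusted p = 0.00582), and in 154Q-AXH in the hippocampus (0.36 ± 0.064, adjusted p = 0.0186) and cortex (0.41 ± 0.087, adjusted p = 0.00986). The hippocampal call in 154Q-AXH was lost without WT-77, WT-221, or 154Q-AXH-217, and the cortical one without the 2 libraries with exchanged names. With the number series in the fit the calls of Cd200 were lost in the 154Q striatum and in the 154Q-AXH hippocampus and cortex. Against only the 2 WT mice of the same number series they were lost in the 154Q hippocampus and cortex and the 154Q-AXH hippocampus, as was that of Cx3cl1 in the 154Q-AXH striatum.

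Smaller ligand changes were those of Tgfb1 in the 154Q cerebellum (-0.43 ± 0.11, adjusted p = 0.0445, edgeR), Cd47 in the 154Q-AXH cortex (0.15 ± 0.039, adjusted p = 0.0335), and Sirpa, the Cd47 receptor, at -0.13 in the 154Q cerebellum and in the cortex of both mutants. Of 6 neuronal markers in the 154Q cortex, Snap25 (-0.41 ± 0.091), Rbfox3 (-0.35 ± 0.069), and Syt1 (-0.20 ± 0.049) were called lower and Stmn2 higher (0.34 ± 0.059). In the 154Q-AXH cortex Rbfox3 was called lower (-0.34 ± 0.069) and Stmn2 higher (0.39 ± 0.059). No neuronal marker was called in the striatum of either mutant. Of 6 astrocyte markers, 5 were called lower in the 154Q cortex (11.1% of all genes were called there) and 1 in the 154Q-AXH cortex (7.15%). The part of these marker changes in the Cx3cl1 and Cd200 results was not tested.

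**Figure D5:**
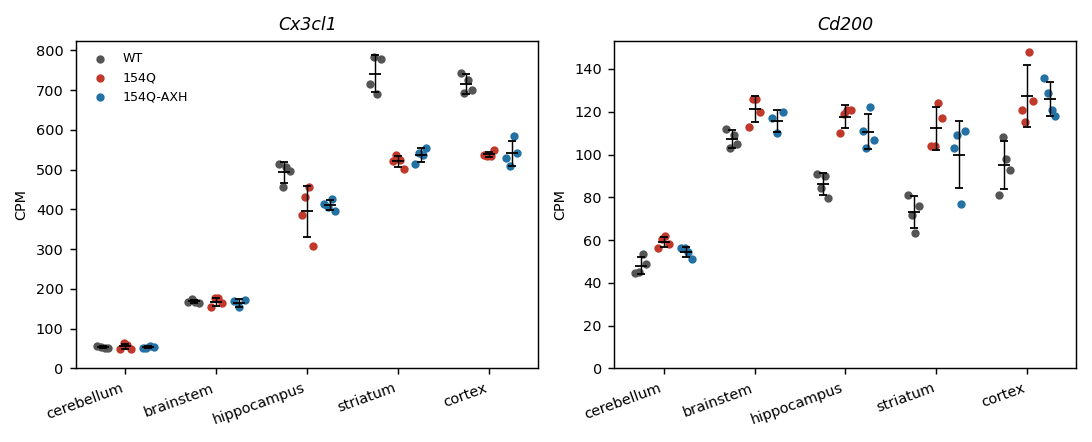
CPM of Cx3cl1 (left) and Cd200 (right) in every library, by region and genotype, with the mean and SD; the axes start at 0. Cortical Cx3cl1 is 692 to 744 CPM in WT and 508 to 584 CPM in the mutants.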

How the data were processed

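Bulk RNA was sequenced from 5 brain regions of 12 mice. Per the submitters' processing notes in the labels, the authors trimmed the reads (Trimmomatic 0.36), aligned them and counted read pairs per gene (STAR 2.7.2d), and ran DESeq2 1.28.1, where the study's methods name a later version. The deposited values are raw counts per gene, and the column that ignores strand was used. Reads over exons of more than 1 gene, on either strand, were therefore ambiguous and counted for no gene. The 4 summary lines and 1 human transgene line were left out, and the 2 strand-specific columns were not used.

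Each region was fitted with its 3 genotypes in edgeR 4.0.16 (R 4.3.3) with the default filter on low counts, TMM scaling, the quasi-likelihood test, and Benjamini-Hochberg adjustment over all genes tested. A gene was called at an adjusted p under 0.05. WT regions and region by genotype terms were fitted across regions. Genotype values are CPM scaled within a region. Levels between genes and regions are RPKM scaled over all 59 libraries with exon lengths of GENCODE M21. Within a region the unit of replication was the mouse, and P-values measure the spread between mice. The main fits across regions held no term for the mouse, so they treated libraries of the same mouse as independent. The fits were tested on simulated data. Alternatives were DESeq2 1.42.0, its size factors, no filter on low counts, 2 genotypes only, mouse number series, Xist and Ttr levels, exchanged or omitted libraries, a block on mouse, and each library left out. Leaving out hippocampal WT-220 and WT-221 together was chosen after seeing the data.

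The 33 genes and all lists were chosen with earlier results of these data known. Values per library are given for genes called in the most comparisons and for those with the lowest adjusted p.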

Additional observations from a re-analysis of the deposited data

Results flagged for a closer look

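In 112 sets of 4 values, each set from the libraries of 1 region and genotype, 6 held a library far from the other 3 by Dixon's test, where chance gives about 1 in 20. The 6 were of genes called in at least 1 comparison. Dok3 in the cerebellum of WT-70 was at 5.07 CPM against 7.16 to 7.56 CPM, and Lpl in the cerebellum of WT-77 at 2.01 CPM against 1.26 to 1.35 CPM. Cd74 in the striatum of WT-70 was at 2.17 CPM against 1.93 to 1.96 CPM, and Fcgr3 in the striatum of 154Q-AXH-218 at 12.5 CPM against 10.9 to 11.1 CPM. Apbb1ip was at 1.8 CPM in the cerebellum of 154Q-75 against 2.11 to 2.17 CPM, and at 4.95 CPM in the brainstem of 154Q-71 against 4.31 to 4.4 CPM.

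The change of Cd74 in 154Q differed between regions by the test of the region by genotype terms (adjusted p = 0.023, edgeR), with a log2 fold change of -1.38 for hippocampus against 0.11 for cerebellum, 0.38 for brainstem, 0.31 for striatum, and -0.11 for cortex.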

How the results depend on the processing

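Of 489 single values under 9804 settings, 9273 stayed on the same side of the threshold and in the same direction or moved by less than the spread, 79 lost and 44 gained a call, 408 moved, and 0 reversed. The share of all genes called under each setting is in parentheses for fits within 1 region. For the tests across regions only the shares in the main fit are given, 5.71% in 154Q and 1.33% in 154Q-AXH. With DESeq2 the genes called numbered 2 in the 154Q-AXH cerebellum (5.05%), 1 in the 154Q-AXH brainstem (0.386%), 7 (10.3%) and 3 (4.58%) in the 154Q and 154Q-AXH hippocampus, 4 in the 154Q striatum (9.98%), 7 in the 154Q-AXH cortex (9.62%), and 3 in the test of 154Q across regions. With only the 2 genotypes compared they numbered 2 in the 154Q hippocampus (4.03%), 1 in the 154Q striatum (5.33%), and 5 in the 154Q-AXH cortex (9.32%). With number series as covariate they numbered 0 (4.59%) and 1 (7.07%) in the 154Q and 154Q-AXH cerebellum, 2 in the 154Q hippocampus (3.15%), 0 in the striatum of either mutant (1.27% and 0.809%), and 1 in the cortex of either (4.28% and 3.07%). Against WT mice of the same number series they numbered 0 (1.76%) and 1 (11.7%) in the cerebellum, 0 in the 154Q hippocampus (0.334%), 1 (5.99%) and 0 (0%) in the striatum, and 1 in the 154Q cortex (1.73%), with 2 WT mice left. With Xist as a covariate they numbered 1 in the 154Q-AXH cerebellum (2.16%), 1 (2.71%) and 0 (0.853%) for hippocampus, 1 (4.32%) and 0 (1.06%) for striatum, and 5 in the 154Q-AXH cortex (7.33%), and with Ttr, a choroid plexus gene, 0 in the 154Q-AXH hippocampus (0.755%). Without both hippocampal WT-220 and WT-221 they numbered 1 (1.35%) and 0 (0.134%) in the hippocampus. Without the libraries at odds with their labels 2 differed across regions in 154Q.

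Leaving out 1 library gave 0 to 1 genes in the 154Q-AXH cerebellum (0.754% to 2.62% of all genes), with Dok3 called without WT-70. In the hippocampus it gave 2 to 4 in 154Q (3.23% to 7.17%) and 0 to 1 in 154Q-AXH (0.482% to 3.61%). In the striatum it gave 1 to 4 (2.69% to 7.79%) and 0 to 2 (0.539% to 3.27%) likewise. In the cortex it gave 2 to 6 (7.38% to 10.9%) and 2 to 5 (4.37% to 8.1%), the highest without 154Q-75 (10.7% and 7.77%). Across regions in 154Q it gave 0 to 2 genes. The highest striatal counts came without WT-70 in 154Q (Fcgr3, Fcer1g, Dok3, and Trem2) and without WT-220 in 154Q-AXH (Itgam and Dok3). The causes of these shifts were not tested. Each mouse gave 1 library per region, so no pairing exists within a region. Across regions a replicate block on mouse gave 1 gene in 154Q and 0 in 154Q-AXH, and 30, 26, 21, 28, and 24 genes for WT cerebellum, brainstem, hippocampus, striatum, and cortex. In the main fit 72.5%, 64.5%, 57.5%, 59.2%, and 56.3% of all genes were called for these WT regions, in the same order. Genes with few counts, such as Itgax and Cst7, are limited by depth.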
